A study of Mus musculus with 9 samples.

Results

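The heart expresses a small group of T-box transcription factors, and the genes described here were *Tbx2*, *Tbx3*, *Tbx4*, *Tbx5*, *Tbx18* and *Tbx20*, chosen by name. All 6 had a row among the 14011 genes of the deposited table. RNA-seq was conducted on mouse hearts at E10.5 to follow the transcriptional effects of deleting *Ctcf*, which encodes an architectural protein of chromatin. Libraries came from 3 genotypes with 3 libraries each, and every library was a pool of 6 hearts of mixed strain, so the pool is the replicate. Homozygotes were *Ctcf* fl/fl; *Nkx2.5-Cre*/+ and heterozygotes *Ctcf* fl/+; *Nkx2.5-Cre*/+. Controls carried no Cre, and their genotype is *Ctcf* fl/fl in the sample labels and *Ctcf* fl/+ in the study's methods. All groups therefore carried a floxed allele, and the driver is one more difference between controls and the other genotypes. *Nkx2.5-Cre* recombines floxed alleles in cardiac progenitors, and the study describes CTCF protein as still present in the endocardium of homozygotes.

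T-box proteins share a DNA-binding domain, the T-box, and compete for similar sites. TBX5 activates the chamber program of the atria and the left ventricle together with NKX2-5 and GATA4, and TBX20 acts with the same partners in chamber myocardium and keeps *Tbx2* out of it. TBX2 and TBX3 are repressors that hold back chamber genes in the atrioventricular canal, the outflow tract and the future conduction system. TBX18 marks the sinus horns and the epicardium, the outer layer of the heart. *Tbx4* is known mainly from the hindlimb and the mesenchyme around the lung bud. *Tbx2* lies next to *Tbx4*, and *Tbx3* next to *Tbx5*, an arrangement that goes back to a duplication of a linked pair.

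On NCBIM37, *Tbx3* (ENSMUSG00000018604) spans chromosome 5 from 120120678 to 120134733 and *Tbx5* (ENSMUSG00000018263) from 120284672 to 120335227, both on the plus strand, with a gap of 149939 bases that holds 1 annotated gene, *Gm16065*. *Tbx2* (ENSMUSG00000000093) spans chromosome 11 from 85646053 to 85655450 and *Tbx4* (ENSMUSG00000000094) from 85699924 to 85729599, also on the plus strand, with a gap of 44474 bases that holds *Gm11444*. Neither gene in the gaps had a row in the table. *Tbx20* (ENSMUSG00000031965) lies on chromosome 9 from 24527648 to 24578746 and *Tbx18* (ENSMUSG00000032419) from 87597635 to 87626095, both on the minus strand. The members are set side by side in a coding stretch of 48 bases from the T-box. It was picked as the in-frame stretch with the most bases shared by all 6 genes, so it overstates how alike they are. The stretch lies in exon 1 of *Tbx2* and *Tbx3*, exon 3 of *Tbx4* and *Tbx5*, and exon 2 of *Tbx18* and *Tbx20*. It is shown in coding orientation from the NCBIM37 genome, with capitals marking the 28 bases that all 6 genes share.
Tbx2, chr11:85646945-85646992: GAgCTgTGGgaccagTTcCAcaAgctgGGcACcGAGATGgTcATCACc
Tbx3, chr5:120122355-120122402: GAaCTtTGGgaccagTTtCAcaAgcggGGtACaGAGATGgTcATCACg
Tbx4, chr11:85704395-85704442: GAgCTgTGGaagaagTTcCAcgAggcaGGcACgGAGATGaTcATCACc
Tbx5, chr5:120288741-120288788: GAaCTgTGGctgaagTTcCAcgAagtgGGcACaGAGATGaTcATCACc
Tbx18, chr9:87624307-87624354: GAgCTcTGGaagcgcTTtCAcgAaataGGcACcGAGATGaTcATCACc
Tbx20, chr9:24575135-24575182: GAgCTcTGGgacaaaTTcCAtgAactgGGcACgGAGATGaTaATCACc
In this stretch *Tbx2* matched *Tbx3* at 41 of 48 bases and *Tbx4* matched *Tbx5* at 41, while the neighbors on a chromosome matched at 39 (*Tbx2* and *Tbx4*) and 35 (*Tbx3* and *Tbx5*). Over the aligned coding sequences the identity was 70.3% for *Tbx2* and *Tbx3*, 68.4% for *Tbx4* and *Tbx5*, 67.7% for *Tbx2* and *Tbx4* and 67.3% for *Tbx3* and *Tbx5*. Other combinations reached similar values, with 70.0% for *Tbx3* and *Tbx20* over the coding sequence, and 39 of 48 bases of the stretch shared by *Tbx2* and *Tbx20* and by *Tbx4* and *Tbx18*. The paralogs differed enough to be counted apart, since no stretch of 30 or of 50 exonic bases of a member occurred in another member. *Tbx3* overlaps *Gm2301*, annotated on the opposite strand and without a row in the table, and the counting is not stated to use strand.

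Values are reads per 1e6 reads of the scaled library, called the normalized signal. Library totals ranged from 4294537 to 11629365 reads, and the libraries of one genotype are given below in one order. That order is 8457617, 9654014 and 6698891 reads for controls, 9896345, 7946683 and 4294537 for heterozygotes, and homozygote replicates 1, 2 and 3 with 4437234, 6139084 and 11629365. *Ctcf*, the deleted gene, had a mean of 121 ± 0.837 in controls, 97.3 ± 3.26 in heterozygotes and 81.4 ± 2.85 in homozygotes (SD, n = 3), with no overlap between the groups. The tissue label was met by all 10 cardiomyocyte markers having a row, with sums of 20802 to 23514 in controls, 23526 to 27294 in heterozygotes and 20215 to 23724 in homozygotes. Homozygotes overlapped both other groups, and every heterozygous library lay above the controls. All 8 erythroid markers were higher in homozygotes than in controls, against 7.19% of all genes, with sums of 56800 to 75114 against 31792 to 46300 in normalized signal. Markers of liver and septum transversum set 1 library apart, with a sum of 779 in the control library of 8457617 reads against 64.4 and 70.4 in the other controls, 11.9 to 22.7 in heterozygotes and 12.9 to 78.5 in homozygotes. Without that library, homozygotes against controls gave -0.43 for *Tbx20* (limma adjusted p = 0.00838) and 0.28 for *Tbx18* (0.0197) on the log2 scale. As these are whole hearts, fewer cells of a type and less RNA per cell cannot be told apart.

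The T-box genes covered a wide range of levels. Per kilobase of exon, *Tbx20* was highest in controls with a normalized signal of 52.5 ± 4.53 (SD, n = 3), followed by *Tbx18* at 22.1 ± 1.08 and *Tbx5* at 15.5 ± 1.46. *Tbx2* stood at 4.89 ± 0.317 and *Tbx3* at 2.85 ± 0.297, and *Tbx4* came last at 0.322 ± 0.0836. Neighbors in this order were further apart than their spread in controls, and the same order held in heterozygotes and homozygotes. *Tbx18* reached 27.0 ± 0.586 per kilobase in homozygotes, against 39.2 ± 4.0 for *Tbx20*. Of the 11 other T-box genes listed, *Mga* was the only one with a row, and it was not called in any comparison (homozygotes against controls gave -0.27 on the log2 scale, limma adjusted p = 0.0625).

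**Figure D1:**
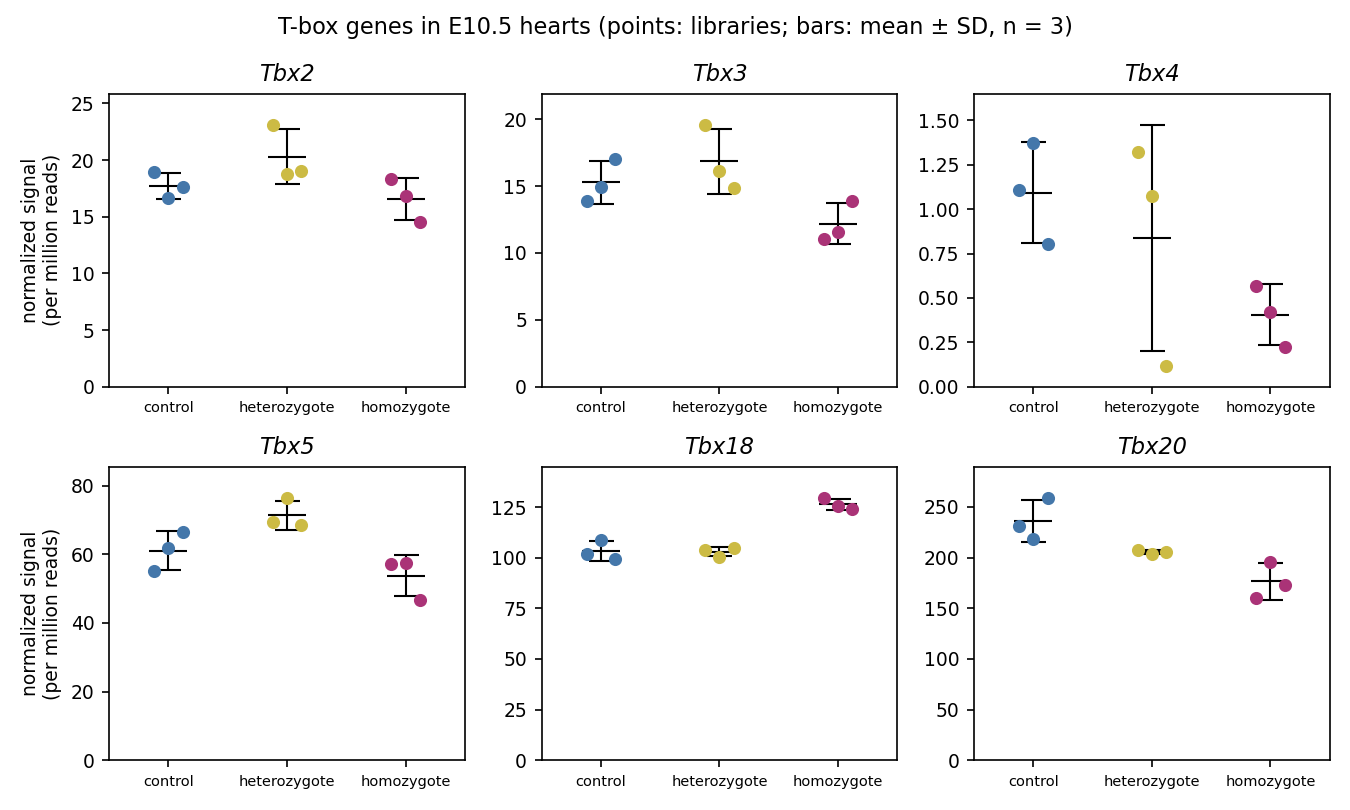
Normalized signal (linear axes from 0) of the 6 T-box genes by genotype, with 1 point per library and bars for the mean ± SD of 3 libraries. *Tbx18* sits between 124 and 129 in homozygotes, above all control and heterozygous libraries, and *Tbx20* between 160 and 196, below all of them.

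Against controls, homozygotes had less *Tbx20* and more *Tbx18*, and the other 4 T-box genes were not called. That is 2 of 6 genes called by limma at an adjusted p under 0.05, 1 in each direction, where 15.2% of all genes tested were called (7.19% higher and 8.03% lower). Leaving out *Tbx4*, which is in the table only through controls and heterozygotes, libraries of the 2 genotypes did not overlap for 2 of 5, *Tbx18* and *Tbx20*, against 33.2% of all genes. Against heterozygotes, 3 of 6 were called, with *Tbx18* higher and *Tbx3* and *Tbx5* lower, against 13.6% of all genes (6.87% higher and 6.7% lower). In that comparison, again leaving out *Tbx4*, 5 of 5 did not overlap, against 30.8% of all genes. Both comparisons use the homozygote libraries and are given side by side. Between heterozygotes and controls none of the 6 was called (0, against 0.143% of all genes), and 0 by edgeR or DESeq2. At an unadjusted p under 0.05 there were 2, *Tbx5* and *Tbx20*, against 7.37% of all genes. Those 2 genes were also the ones without overlap, against 14.3% of all genes.

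**Figure D2:**
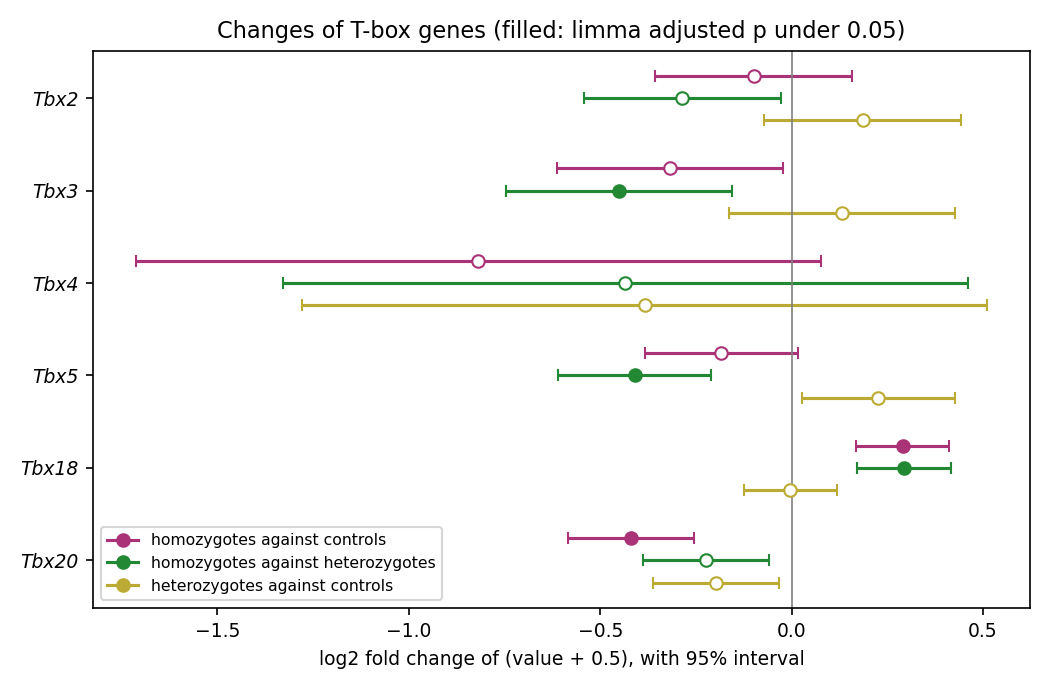
Log2 fold change on the log2(value + 0.5) scale of each T-box gene in 3 comparisons, with 95% intervals from limma and filled points for an adjusted p under 0.05. *Tbx18* lies at 0.29 against either group, *Tbx20* at -0.42 against controls, and the intervals of *Tbx4* are the widest.

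*Tbx20*, the most abundant of the group, read 231, 219 and 258 in controls, 207, 203 and 206 in heterozygotes and 160, 196 and 173 in homozygotes. The groups formed 3 separate levels, with every homozygous library below every heterozygous one and every heterozygous library below every control. Homozygotes kept 74.7% of the control mean. The change was -0.42 on the log2 scale (SE 0.08, limma adjusted p = 0.00303), and this call held in all 21 alternative settings. Against heterozygotes it was -0.22 (SE 0.08, adjusted p = 0.0697). Leaving out homozygote replicate 2, the highest of its group, moved that value to -0.30 with an adjusted p of 0.0226. Over the 21 alternative settings the value ran from -0.30 to -0.16, with adjusted p up to 0.211, and in 19 of them it stayed uncalled. Heterozygotes against controls gave -0.20 (SE 0.08, adjusted p = 0.605).

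TBX20 is also made in the endocardium and in the cushions, the swellings from which valves form. The sum of 9 cushion mesenchyme markers was 1827 to 2090 in controls, 1673 to 1735 in heterozygotes and 1219 to 1564 in homozygotes, so it fell into the same order as *Tbx20*. Of the markers, *Postn*, *Vcan* and *Has2* were lower in homozygotes than in controls (0 higher and 3 lower of 9, against 7.19% and 8.03% of all genes). The sum of 10 endothelial and endocardial markers was 1273 to 1411 in controls, 1217 to 1270 in heterozygotes and 1058 to 1287 in homozygotes, with homozygotes overlapping both. Relative to the sum of the cardiomyocyte markers, *Tbx20* was 0.936% to 1.11% in controls, 0.745% to 0.882% in heterozygotes and 0.759% to 0.857% in homozygotes, so on this scale homozygotes still lay below controls but overlapped heterozygotes. The part of the cushion and endocardial markers in the result was not tested.

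*Tbx5*, the chamber activator, read 55.0, 61.8 and 66.4 in controls, 69.5, 76.3 and 68.4 in heterozygotes and 57.1, 57.5 and 46.8 in homozygotes. Heterozygotes stood above both other groups, while homozygotes overlapped controls. The difference of homozygotes from heterozygotes was -0.41 in log2 units (SE 0.09, limma adjusted p = 0.0116), and this call was lost when the mean-variance trend was left out (adjusted p = 0.056). Against controls the change was -0.18 with a 95% interval from -0.38 to 0.02 (adjusted p = 0.206). The difference of heterozygotes from controls was 0.23 (SE 0.09, adjusted p = 0.617). Cardiomyocyte markers were also highest in heterozygotes, and relative to their sum *Tbx5* was 0.264% to 0.283% in controls, 0.266% to 0.295% in heterozygotes and 0.231% to 0.270% in homozygotes, with overlap between the groups.

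The repressor *Tbx2* read 18.9, 16.6 and 17.6 in controls, 23.1, 18.7 and 19.0 in heterozygotes and 18.3, 16.8 and 14.5 in homozygotes. Homozygotes overlapped controls and lay just below heterozygotes, and neither comparison passed the test. The log2 fold change was -0.10 against controls, with a 95% interval from -0.36 to 0.16 (limma adjusted p = 0.63), and -0.29 against heterozygotes (SE 0.12, adjusted p = 0.136).

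*Tbx3*, the other repressor, read 13.9, 14.9 and 17.0 in controls, 19.6, 16.1 and 14.9 in heterozygotes and 11.0, 11.6 and 13.9 in homozygotes. Homozygote replicate 3 was level with the lowest control, and all 3 homozygous libraries were below the heterozygous ones. Set against heterozygotes, the change was -0.45 in log2 units (SE 0.14) and the limma adjusted p of 0.0445 was close to the threshold. The call was lost in 14 of 21 alternatives, with adjusted p from 0.0377 to 0.169 over the settings. The libraries whose omission lost it were the control libraries of 8457617 and 9654014 reads (adjusted p = 0.0509 and 0.0607), the heterozygous libraries of 9896345 and 7946683 reads (0.169 and 0.0816) and homozygote replicates 1 and 2 (0.116 and 0.108). Against controls it was -0.32 (SE 0.14, adjusted p = 0.138).

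*Tbx18*, the gene of the sinus horns and the epicardium, was the member that went up. It read 102, 109 and 99.2 in controls, 104, 100 and 105 in heterozygotes and 129, 126 and 124 in homozygotes. Controls and heterozygotes overlapped, and the lowest homozygous library was above the highest of the others. Homozygotes reached 122% of the control mean. The difference in log2 units was 0.29 (SE 0.06, limma adjusted p = 0.0047), with the same 0.29 when set against heterozygotes (SE 0.06, adjusted p = 0.00477). Both calls held in all 21 alternatives. Between heterozygotes and controls the difference was close to 0, with a 95% interval from -0.13 to 0.12 (adjusted p = 0.996).

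Other genes of the epicardium rose with *Tbx18*. Of 12 epicardial markers, 6 were higher in homozygotes than in controls and 0 lower, where 7.19% of all genes were higher, and the same counts held against heterozygotes. *Upk1b*, a uroplakin of the mesothelium, had a mean of 73.7 ± 3.04 in homozygotes and 42.2 ± 2.95 in controls (log2 fold change of 0.80), and *Wt1*, the epicardial transcription factor, 66.9 ± 3.51 against 46.4 ± 3.76 (0.52; SD, n = 3). The others called were *Upk3b* (0.44), *Gpm6a* (0.37), *Lrrn4* (0.30) and *Sema3d* (0.24). The sum of the 12 markers ran from 492 to 546 in controls, 521 to 550 in heterozygotes and 672 to 730 in homozygotes, and the homozygous mean was 1.33 times the control mean. Relative to that sum, in which it is not counted, *Tbx18* was 18.9% to 20.7% in controls, 18.3% to 20.1% in heterozygotes and 17.7% to 18.7% in homozygotes. On that scale homozygotes were below controls and not above them.

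*Tbx4* was near the limit of detection. Its reads numbered 9, 13 and 5 in the control libraries, 13, 8 and 0 in the heterozygous ones and 2, 2 and 2 in homozygotes, which gave normalized signals of 1.11, 1.37 and 0.804, then 1.32, 1.07 and 0.115, then 0.568, 0.423 and 0.225. All homozygous libraries were below all controls, while heterozygotes spanned both. The heterozygous library without a read had 4294537 reads, and a count of 0 allows up to 3 reads there. Summed over each group there were 27 reads in controls, 21 in heterozygotes and 6 in homozygotes. *Tbx4* reached the table's minimum of 1 in 2 control, 2 heterozygous and 0 homozygous libraries, so it has a row through the groups where it is higher, and its lower values in homozygotes are given as a description. On the log2(value + 0.5) scale, which understates changes of low genes, the difference of homozygotes from controls was -0.82 (SE 0.42), and no p is given for it. Of 8 markers of foregut and lung bud, where *Tbx4* is known to be expressed, 2 had a row, and their sum was at most 4.31 in any library.

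The linked pairs were compared by the log2 ratio of (value + 0.5) between the neighbors within each library. The tests were two-sided exact permutation tests over libraries, in which 3 against 3 cannot give a p below 0.10. Adjusted p-values count 12 relations. Those of *Tbx2* over *Tbx4* and of *Tbx18* over *Tbx20* are among them, although they are only described below. *Tbx3* over *Tbx5* was -1.95, -2.02 and -1.93 in controls, -1.80, -2.21 and -2.16 in heterozygotes and -2.32, -2.26 and -1.71 in homozygotes. The ratio was tight in controls and wide in the other groups, which it overlapped. Homozygotes differed from controls by -0.13 (exact p = 0.4, adjusted p = 0.533) and from heterozygotes by -0.04 (exact p = 0.7, adjusted p = 0.84). Heterozygotes differed from controls by -0.09 (exact p = 0.4, adjusted p = 0.533). Leaving out 1 library moved the first value to between -0.33 (without homozygote replicate 3) and -0.023 (without replicate 1). It moved the second to between -0.23 (without replicate 3) and 0.088 (without the heterozygous library of 9896345 reads), so its sign was not stable.

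The ratio of *Tbx2* over *Tbx4* was 3.60, 3.19 and 3.80 in controls, 3.69, 3.61 and 4.99 in heterozygotes and 4.14, 4.23 and 4.37 in homozygotes. Homozygotes differed by 0.72 from controls and by 0.15 from heterozygotes. Leaving out 1 library moved the second value to between -0.093 (without the heterozygous library of 7946683 reads) and 0.59 (without that of 4294537 reads), so its sign was not stable. Heterozygotes differed from controls by 0.57, and by 0.12 to 0.81 on leaving out 1 library. These values are a description and no p is given for them, since *Tbx4* has its row through controls and heterozygotes. The difference of homozygotes from controls depended on the pseudocount because of the few *Tbx4* reads, at 0.48 with a pseudocount of 1 and 1.17 with 0.1. For comparison, *Tbx18* over *Tbx20*, on the same chromosome but far apart, rose from -1.18, -1.0 and -1.38 in controls to -0.31, -0.64 and -0.48 in homozygotes. That ratio differed by 0.71 from controls and by 0.52 from heterozygotes, with every homozygous library above the others. This order is fixed by the values of *Tbx18* and *Tbx20* given above, so it is a description and no p is given for it. The paralogs *Tbx2* and *Tbx3* overlapped in their ratio in all comparisons (differences of 0.22, 0.17 and 0.05, exact p of 0.4, 0.4 and 0.8).

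**Figure D3:**
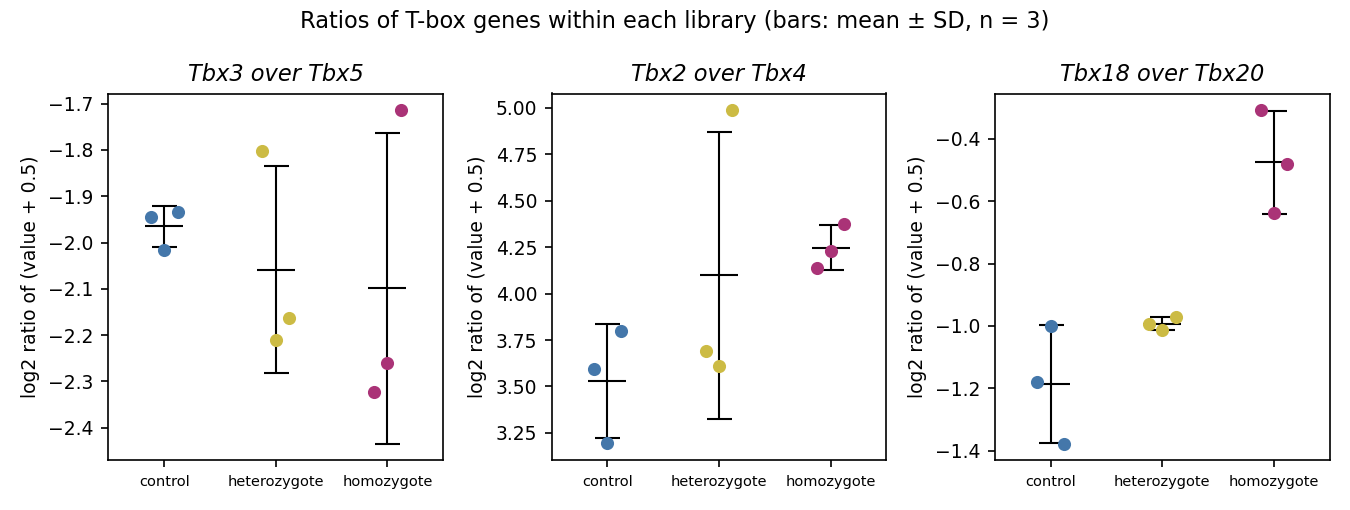
Log2 ratio of (value + 0.5) between T-box genes within each library, by genotype, with points for libraries and bars for the mean ± SD of 3. *Tbx3* over *Tbx5* overlaps between genotypes, *Tbx2* over *Tbx4* rests on few reads of *Tbx4*, which has its row through controls and heterozygotes, and *Tbx18* over *Tbx20* is higher in homozygotes than in all other libraries.

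Genes around the T-box genes gave a mixed picture. The 5 nearest genes with a row on each side of every member came to 40 genes that are not members. Leaving out *2610027K06Rik*, which has its row through the groups where it is higher, 7 of the other 39 were called in homozygotes against controls, 1 higher and 6 lower, beside the 15.2% of all genes given above. Against heterozygotes 6 of the 39 were called, 1 higher and 5 lower, against 6.87% and 6.7% of all genes, and between heterozygotes and controls 0 (limma). Around *Tbx20*, *Herpud2* at a gap of 334 kb was higher (log2 fold change of 0.41, limma adjusted p = 0.0196). *Bmper*, a secreted BMP modulator 1238 kb away, fell by 0.50 (adjusted p = 0.00921) and *Acad8*, 2203 kb away, by 0.32 (0.0276). On the side of *Tbx18*, *Me1* at a gap of 1008 kb was lower (-0.26, adjusted p = 0.0195) and the other 9 neighbors were not called. Around the linked pairs, *Plbd2* (-0.45, 598 kb from *Tbx5*) and *2410131K14Rik* (-0.32, 1405 kb from *Tbx3*) were lower. On the side of *Tbx2* and *Tbx4*, *Med13* (-0.21, 351 kb from *Tbx4*) and *2610027K06Rik* (-1.01) were lower. The mean of *Med13* was 98.1 in controls, 80.2 in heterozygotes and 84.9 in homozygotes, so heterozygotes were lowest. *2610027K06Rik* lies only 328 bases from *Tbx2* on the opposite strand, and its mean was 1.51 ± 0.360 in controls, 0.802 ± 0.231 in heterozygotes and 0.511 ± 0.252 in homozygotes (SD, n = 3). It reached the table's minimum of 1 in 3 control libraries, 1 heterozygous library and 0 homozygous ones, so its presence in the table rests on the groups where it is higher, and its difference is given as a description.

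**Figure D4:**
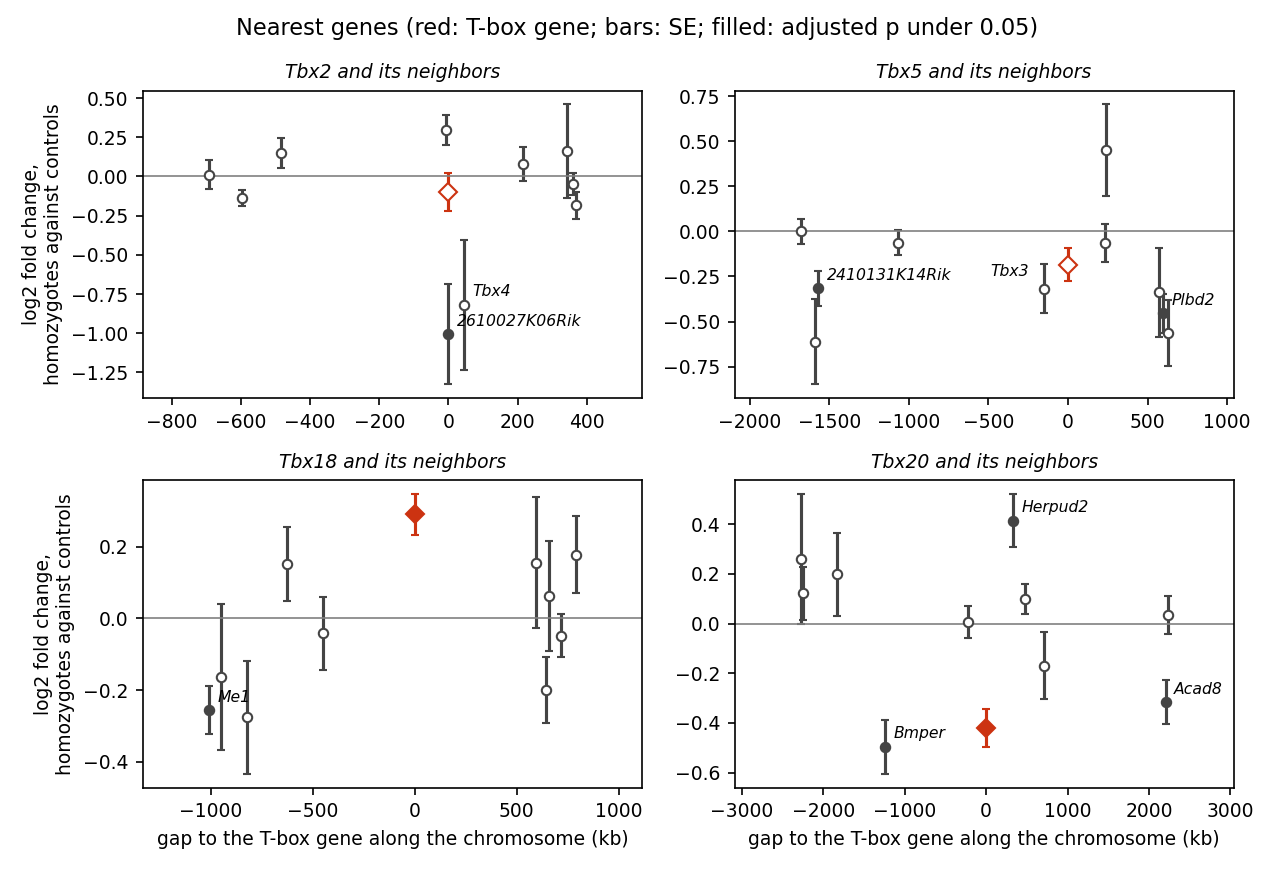
Log2 fold change in homozygotes against controls of *Tbx2*, *Tbx5*, *Tbx18* and *Tbx20* (red diamonds) and their nearest genes (circles, with *Tbx3* and *Tbx4* among them), plotted against the gap in kb along the chromosome, with bars for the standard error and filled symbols for an adjusted p under 0.05. *Tbx18* is called higher beside 1 lower neighbor, and *Tbx20* lower beside 1 higher and 2 lower neighbors.

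Among 18 partners of the T-box proteins, 5 were lower in homozygotes than in controls and 0 higher, against 8.03% of all genes lower, and the median log2 fold change was -0.10 against -0.0011 for all genes. *Nkx2-5*, the homeobox partner of TBX5 and TBX20, had a mean of 38.8 ± 2.33 in homozygotes, 57.0 ± 2.87 in heterozygotes and 75.4 ± 6.00 in controls (SD, n = 3), a log2 fold change of -0.95 against controls. *Hand1* (-0.45), *Mef2c* (-0.42) and the remodelers *Chd7* (-0.38) and *Chd4* (-0.24) were the others. All except *Chd4* were also lower against heterozygotes. *Nkx2-5* is the locus from which the driver takes its name, and Cre was carried by both groups with lower values. Between those groups, the log2 fold change of homozygotes against heterozygotes was -0.55 (limma adjusted p = 0.000764). The part of the driver in these values was not tested.

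Of 11 genes known to be activated by TBX5, 4 were lower in homozygotes than in controls and 2 higher, against 8.03% and 7.19% of all genes, with a median log2 fold change of -0.23. *Gja5*, a gap junction protein of the chambers, was at 45.2 ± 11.4 in homozygotes and 135 ± 27.3 in controls (SD, n = 3; log2 fold change of -1.59), and *Ryr2*, the calcium release channel, at 148 ± 29.3 against 321 ± 42.1 (-1.13). *Pln* (-0.44), which restrains the calcium pump, and the natriuretic peptide *Nppa* (-0.39) were lower too. The genes that rose were *Wnt2b* (0.45) and *Gas1* (0.38), a Wnt ligand and a co-receptor of Hedgehog, known from the second heart field and its surroundings. Against heterozygotes, 5 were lower, now with the calcium pump *Atp2a2* (-0.42), and 1 higher, against 6.7% and 6.87% of all genes. The count against controls went from 6 to 3 without the control library of 9654014 reads.

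In the list of genes known to be repressed by TBX2 or TBX3, *Nppa* and *Gja5* were shared with the list of activated genes. Of the 7 with a row, 4 were lower in homozygotes than in controls and 0 higher, against 8.03% and 7.19% of all genes, with a median log2 fold change of -0.39. *Gja1*, another connexin of the chambers, was at 75.8 ± 7.78 in homozygotes and 157 ± 8.11 in controls (SD, n = 3; log2 fold change of -1.05), and *Cited1*, a transcriptional co-activator, at 81.0 ± 3.76 against 139 ± 10.1 (-0.77). Not called were *Smpx* (-0.07), *Mycn* (-0.16) and *Cdkn1a* (0.31). Against heterozygotes 5 were lower (6.7% of all genes), with *Mycn*, a driver of proliferation, added (-0.26).

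Pacemaker and atrioventricular canal genes, which TBX3 and TBX2 leave active, gave 5 lower and 0 higher of 11 against controls (8.03% and 7.19% of all genes). *Rspo3*, a Wnt agonist, fell by 0.94 on the log2 scale, the calcium channel *Cacna1d* by 0.71, *Bmp2* by 0.69, the connexin *Gjc1* by 0.43 and *Tgfb2* by 0.37. *Hcn4*, the pacemaker channel, was lower against heterozygotes (22.6 ± 1.09 against 32.3 ± 3.52, SD, n = 3, log2 fold change of -0.50). With it 6 of 11 were lower there (6.7% of all genes), and 3 of 11 were called without the heterozygous library of 4294537 reads. The BMP and Notch signals that set the domain of *Tbx2* and *Tbx3* gave 5 lower and 0 higher of 17 against controls, again beside 8.03% and 7.19% of all genes. They were the ligands *Bmp2* and *Bmp7* (-0.36), the receptor *Bmpr2* (-0.94), *Notch1* (-0.43) and its target *Hey2* (-0.74), which keeps *Tbx2* out of the chambers. Against heterozygotes there were 6 lower (6.7% of all genes), with *Bmpr1a* (-0.22) and the inhibitor *Smad7* (-0.38) in place of *Notch1*. That number dropped to 2 without the heterozygous library of 9896345 reads and to 3 without that of 4294537 reads or homozygote replicate 1 or 3. None of the genes in these 5 lists was called between heterozygotes and controls by limma, and DESeq2 called 1 partner, *Nkx2-5*. An unadjusted p under 0.05 was found for 4 of 17 BMP and Notch genes, 2 of 11 activated, 1 of 7 repressed and 2 of 11 pacemaker genes and 1 of 18 partners, where 7.37% of all genes had one.

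**Figure D5:**
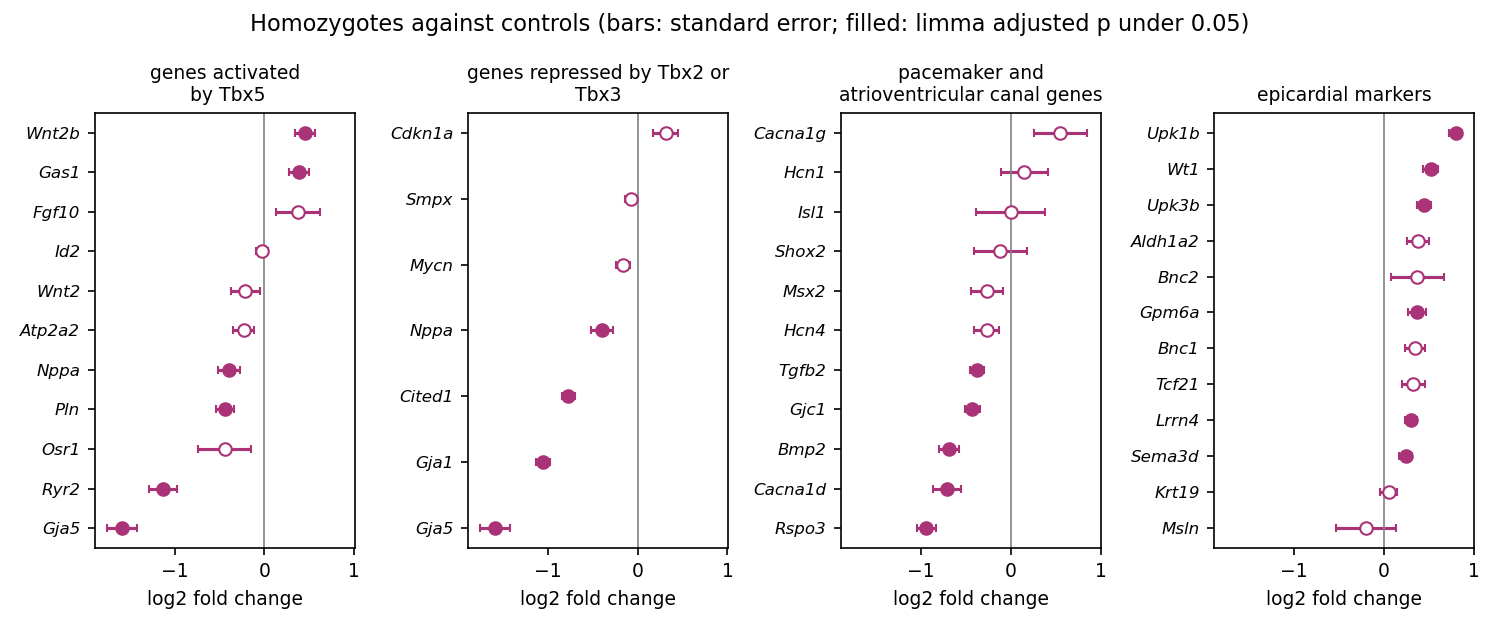
Log2 fold change in homozygotes against controls of genes in 4 lists, with bars for the standard error from limma and filled points for an adjusted p under 0.05. Called genes lie on the lower side in the lists of repressed and of pacemaker genes, on both sides among genes activated by TBX5, and on the higher side among epicardial markers.

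Over the 9 libraries, the T-box genes themselves varied in different ways. *Tbx18* ran against *Tbx20* (Pearson r = -0.83) and against *Tbx3* (r = -0.80), and the highest value among the members was 0.66 for *Tbx2* and *Tbx5*. The linked *Tbx3* and *Tbx5* had r = 0.59, within the range of members on different chromosomes, such as 0.59 for *Tbx3* and *Tbx20*. The value was 0.44 for the linked *Tbx2* and *Tbx4* and 0.45 for *Tbx3* and *Tbx4*. Both of these rest on the few reads of *Tbx4*, which has its row through controls and heterozygotes. All these correlations are descriptions over 9 libraries that share genotype and depth differences. Among genes with a mean of at least 10, the nearest in pattern to *Tbx20* were *Myst3* (r = 0.98), *Hook3* (0.98) and *Atf7* (0.97), and those nearest to *Tbx18* were *Atp5j2*, *C330018D20Rik* and *Mnd1* (0.98 each). *Tbx5* was followed by *Efnb3* (0.98), *Hrc* (0.97) and *Slc12a4* (0.96), *Tbx3* by *Edc4* (0.94), *Hnrnpa1* and *Brd3* (0.93 each), and *Tbx2* by *Xylt2* (0.93), *Dpp3* (0.92) and *Nasp* (0.91). No T-box gene was among the nearest of another.

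Promoter sequence, from RefSeq on GRCm38.p6 and 300 bases long around the start, was matched for *Tbx4*, *Tbx18* and *Tbx20*. The set of promoters used held no entry under the names *Tbx2*, *Tbx3* and *Tbx5*, which says nothing about RefSeq itself. *Tbx20* had 26 CpG dinucleotides and a GC content of 68.3%, *Tbx18* had 15 and 51.7%, and *Tbx4* had 8 and 59.0%, against medians of 7 and 52.7% over 32851 promoters. The letters TATAAA, read on both strands, occurred once, in *Tbx4*, and in 13.6% of all promoters. The core of the site bound by T-box proteins, TCACACCT, was in none of the 3 and in 1.28% of all promoters, which says only that these letters are not in these windows.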

How the data were processed

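RNA was measured in 9 libraries of E10.5 hearts, 3 per genotype. Sequencing used a GAIIx. The authors deposited their normalized signal per gene (NCBIM37 transcriptome) as a single table. The submitters' processing notes name CASAVA, cutadapt, RSEM, Bowtie2 and limma. Every deposited signal value was a whole read plus 0.5 (100% within 0.01 reads), scaled by reads times a TMM factor. All rows had at least 1 in at least 3 libraries, so all 6 members passed the authors' filter. *Tbx4* reached it through 2 control and 2 heterozygous libraries.

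Columns named KO, DH and Het were taken as homozygotes, heterozygotes and controls. The means of the Het columns equaled the control averages in a supplementary table of the study within 0.1% (1998 of 1998 genes, and 787 of 787 for heterozygotes). Control and heterozygous columns match no single sample.

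All 9 libraries were fitted with limma 3.58.1 (R 4.3.3) on log2(value + 0.5) with a mean-variance trend, without covariates, and Benjamini-Hochberg adjustment over 14011 genes. A call needed an adjusted p under 0.05. Ratios within libraries were tested by exact permutation. edgeR 4.0.16 and DESeq2 1.42.0 on the recovered reads were alternatives, with the others given in the closing section, and the fits were tested on simulated data. Gene models came from GENCODE M1. Members, lists and tests were chosen with earlier results of these data known. Genes named were the members, list genes called in homozygotes, the 5 nearest genes on each side, and the 3 nearest in pattern by Pearson r among genes with a mean of at least 10. One listed gene is not reported here. P-values measure the spread between pools.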

Additional observations from a re-analysis of the deposited data

How the results depend on the processing

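Over 21 alternatives (other pseudocounts, a minimum mean of 5, fits of the compared groups, quantile normalization, no trend, edgeR, voom, DESeq2, removal of the length trend, a replicate block, a stricter threshold and leaving out each library), 2 T-box genes stayed called in homozygotes against controls and 0 in heterozygotes against controls. Against heterozygotes the number of 3 became 1 without the trend or at an adjusted p under 0.01. Without the trend, 3 genes activated by TBX5 were called against either group, 3 repressed genes against heterozygotes, 3 pacemaker genes against heterozygotes, and 3 BMP and Notch genes against controls and 2 against heterozygotes. At an adjusted p under 0.01 the numbers were 3 and 3 activated genes (against controls and heterozygotes), 3 repressed and 3 pacemaker genes against heterozygotes, and 3 and 2 BMP and Notch genes. DESeq2 called 1 partner between heterozygotes and controls. The cause was not tested. The log2 ratio of *Tbx2* over *Tbx4* against controls was 0.48 with a pseudocount of 1 and 1.17 with 0.1, by construction from few reads.

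Leaving out 1 library at a time gave 2 to 3 T-box genes against heterozygotes, 4 to 5 partners against controls, 3 to 5 and 4 to 6 activated genes (against controls and heterozygotes), 3 to 4 and 4 to 5 repressed genes, 5 and 3 to 6 pacemaker genes, and 4 to 6 and 2 to 6 BMP and Notch genes. Between heterozygotes and controls it gave 0 to 1 BMP and Notch genes. The ratio of *Tbx2* over *Tbx4* ran from 0.55 to 0.85 against controls. Differences near 0 between heterozygotes and controls changed sign, for *Tbx18* to 0.000813 by quantile normalization. Leaving out libraries gave -0.032 to 0.035 for *Tbx18*, positive without the control of 9654014 or the heterozygote of 7946683 reads, and -0.68 to 0.10 for *Tbx4*, positive without the heterozygote of 4294537 reads.

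The replicate block used the numbers that end the column names. Same-numbered libraries correlated between -0.04 and 0.09 in their deviations, and differently numbered ones between -0.095 and 0.116. With so few libraries per group, this cannot tell whether equal numbers stand for anything shared. With the block, 2 T-box genes were called against controls, 2 against heterozygotes and 0 between heterozygotes and controls. Depth limits *Tbx4*, with 0 to 13 reads per library, fewest among the members.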
